A study of Mus musculus with 16 samples.

Results

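The genes described here were Krt25, Krt26, Krt27, Krt28, Krt71, Krt73, Krt75 and Tchh, a set of 8 among 23282 rows of the count tables, taken by symbol because they encode keratins and trichohyalin of the inner root sheath and the companion layer of the hair follicle. Each had 1 row, and all 8 were among the 14854 rows that passed the filter on low counts. Of these, 6 passed only through the groups in which they were high, since Krt25, Krt26, Krt27, Krt28, Krt71 and Krt73 reached the level asked for in fewer than 4 Cont libraries, while Krt75 and Tchh reached it in all 4. The set was chosen by name with results of these libraries already known, so that the adjusted p-values below describe the size of a difference against the spread between mice and are not independent evidence for the set.

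RNA from the dorsal skin of 16 male wild-type C57BL/6N mice, bought at 3 weeks of age, was sequenced in 4 groups of 4 mice, each mouse giving 1 library. Cont mice ate normal chow, and LowAhR mice ate a diet low in ligands of the aryl hydrocarbon receptor (AhR) for 12 weeks and were kept on paper bedding free of such ligands. LowAhR+AD mice ate the same diet and, from 2 weeks into it, had 1% 2,4-dinitrochlorobenzene (DNCB), a hapten that causes dermatitis, put on the back in acetone and olive oil for 10 weeks. LowAhR+AD+BJ mice had the diet and DNCB and were also gavaged daily with BJIKT, the herbal decoction Bojungikgi-tang, at 1 g/kg. The sources used here do not state whether the back was shaved or whether mice without DNCB received the solvent, so that DNCB, its solvent and handling of the back cannot be told apart.

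The inner root sheath is the rigid sleeve that moulds the growing hair shaft, and the companion layer lies between it and the outer root sheath. The inner root sheath is built while a follicle is in its growth phase, called anagen. It is lost as the follicle regresses, so that resting skin holds little of its RNA. Keratin filaments are made of a type I and a type II chain. Krt25, Krt26, Krt27 and Krt28 encode the type I chains of the inner root sheath, Krt71 and Krt73 encode type II chains of the same layers, and Krt75 encodes the type II chain that marks the companion layer. Tchh encodes trichohyalin, a protein that fills and hardens the cells of the inner root sheath and the medulla of the hair.

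The keratin genes lie in the clusters of their type. Krt25, Krt26, Krt27 and Krt28 are neighbours on the minus strand of chromosome 11 (GRCm38, from 99315516 to 99374903). Krt75, Krt71 and Krt73 lie on the minus strand of chromosome 15, with Krt75 from 101563343 to 101573904, Krt71 from 101733949 to 101743097 and Krt73 from 101793304 to 101802360. The stress keratin genes Krt6b and Krt6a lie between Krt75 and Krt71. Tchh lies on the plus strand of chromosome 3, from 93442330 to 93449077, and overlaps an antisense non-coding gene, while Krt75 overlaps a microRNA gene of the other strand. Whether reads were counted by strand is not given in the sources used here, so that reads of these overlapping partners could not be set apart.

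RefSeq promoters of GRCm38.p6 were matched for all 8 genes. The 120 bases before the start are printed for a type I gene, for both type II genes of the inner root sheath and for Krt75. They were chosen because the first 3 hold the letters TATAAA and Krt75 does not. Capitals mark the letters TATAAA, the core of a TATA box, and each is written on the coding strand.
Krt25, chr11:99322952-99323071, minus strand: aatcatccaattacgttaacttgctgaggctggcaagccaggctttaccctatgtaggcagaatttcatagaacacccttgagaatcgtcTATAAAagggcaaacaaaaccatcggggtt
Krt71, chr15:101743098-101743217, minus strand: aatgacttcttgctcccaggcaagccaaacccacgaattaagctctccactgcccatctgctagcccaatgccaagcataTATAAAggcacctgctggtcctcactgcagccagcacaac
Krt73, chr15:101802361-101802480, minus strand: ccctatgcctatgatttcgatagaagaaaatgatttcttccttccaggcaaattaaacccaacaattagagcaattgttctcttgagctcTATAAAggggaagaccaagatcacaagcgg
Krt75, chr15:101573905-101574024, minus strand: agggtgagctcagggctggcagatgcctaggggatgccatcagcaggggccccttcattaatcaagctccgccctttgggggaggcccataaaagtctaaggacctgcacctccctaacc

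TATAAA began 30 bases before the start in Krt25, Krt26, Krt28 and Krt73, and 40 bases before it in Krt71. These 5 of the 8 genes therefore held it on the coding strand between 20 and 40 bases before the start, against 1.99% of 32851 promoters. In Krt27 it began 15 bases before the start, and in the 250 bases before the start, on either strand, 6 of the 8 genes and 12.4% of all promoters held it. Krt75 and Tchh had no such letters in this window. The motif AGATAA, bound by GATA factors, was found on either strand in the 250 bases before the start of Krt25, Krt27, Krt71, Krt73 and Tchh, and in 9.99% of all promoters. CTTTGA, bound by LEF1 and TCF factors, was found in Krt28 and Tchh and in 13.8% of promoters. TTTATNG, bound by some HOX factors, was found in 5 of the 8 genes and in 9.81% of promoters, and its matches in Krt25, Krt26 and Krt73 lie on the TATAAA letters read from the other strand. In Krt75 the match lies 34 bases before the start, in the same way on the letters CATAAA, which are close to TATAAA. These matches describe the letters and not binding.

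Libraries held 7080508 to 8773876 counts in the Cont and LowAhR groups and 10614393 to 13467477 in the DNCB groups, with no overlap. Levels are given as CPM, the count scaled to a common library total with TMM factors, and a prior count of 2 was added for the log2 scale. A count of 0 allowed up to 0.229 to 0.406 CPM (3 counts), a limit that covers counting error only. LowAhR+AD replicate 1 stood apart, with 37.4% of the genes that should have had 20 to 40 counts, judged by the rest of the group, at 0, against at most 13.7% in any other library. The epidermal keratin genes Krt5 and Krt14 were above 0 in all 16 libraries, as skin should have them. Each QuantSeq library reads about 1 fragment next to the poly(A) tail of a transcript, so that counts were not divided by length.

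The 8 genes were nearly absent from some mice and took over 1% of the library in others. Their summed share of all counts was 0.00295% to 0.0952% in Cont, 0.0117% to 0.799% in LowAhR, 0.699% to 1.96% in LowAhR+AD and 0.568% to 1.49% in LowAhR+AD+BJ. The Cont group was spread widely but low throughout, and the LowAhR group reached from the Cont range to that of the DNCB groups. All 8 mice treated with DNCB were high. Apart from LowAhR replicate 4, no mouse without DNCB reached the range of the DNCB groups. On the log2 scale the mean of the 8 genes was 3.10 ± 2.49 (SD, n = 4) in Cont, 6.23 ± 2.96 in LowAhR, 9.39 ± 0.79 in LowAhR+AD and 9.60 ± 0.68 in LowAhR+AD+BJ. In skin as a whole, fewer follicle cells of a layer and less RNA in each cell cannot be told apart.

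**Figure D1:**
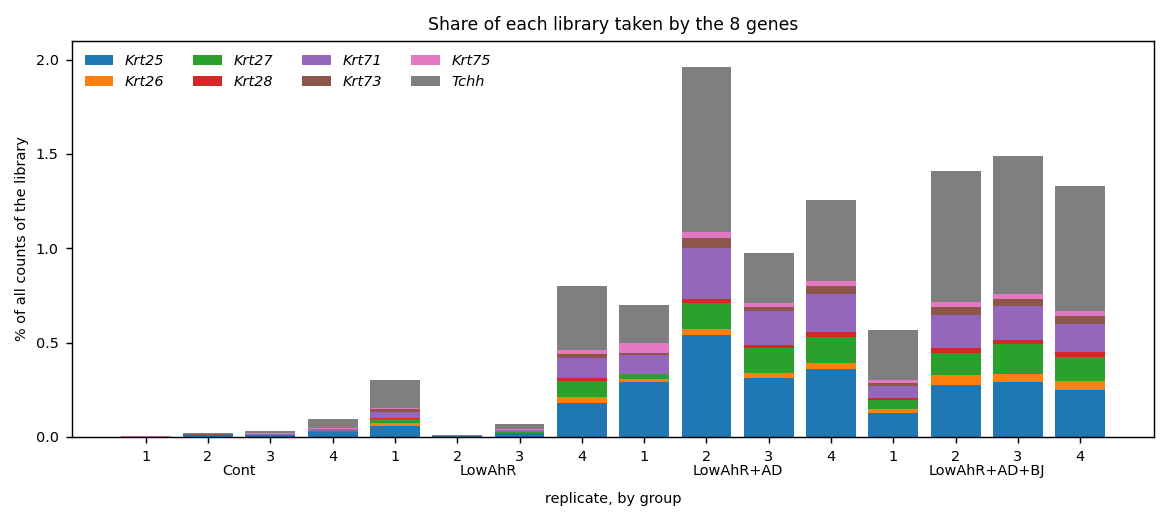
Share of all counts of a library (%, linear axis from 0) taken by each of the 8 genes, stacked, in the 4 replicates of each group. The LowAhR bars run from 0.0117% in replicate 2 to 0.799% in replicate 4, while the 8 bars of the DNCB groups lie between 0.568% and 1.96%.

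Among the type I keratins, Krt25 had 0, 83.0, 78.6 and 229 CPM in Cont replicates 1 to 4. It had 595, 22.7, 189 and 1891 CPM in the LowAhR replicates. It had 2528, 5542, 3289 and 3551 CPM in LowAhR+AD and 1276, 3080, 2929.8 and 2678 CPM in LowAhR+AD+BJ. Every LowAhR+AD library was therefore above every LowAhR and Cont library, whereas LowAhR and Cont overlapped.

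Krt27 had 0.128, 10.1, 8.76 and 42.6 CPM in the Cont replicates and 226, 4.22, 64.8 and 897 CPM in the LowAhR replicates. In LowAhR+AD it had 203, 1428, 1426 and 1386 CPM, and in LowAhR+AD+BJ 487, 1303, 1611 and 1364 CPM. LowAhR+AD replicate 1, the library with many genes at 0, was thus about as low as LowAhR replicate 1, and the other 3 libraries of its group were nearly equal.

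Krt28 repeated this at a lower count. It had 0, 1.94, 2.71 and 1.56 CPM in Cont and 64.8, 1.15, 11.2 and 183 CPM in LowAhR. It had 16.3, 191, 166 and 234 CPM in LowAhR+AD and 96.4, 283, 232 and 291 CPM in LowAhR+AD+BJ. Cont replicates stayed under 3 CPM, LowAhR replicates 1 and 4 were far above them, and LowAhR+AD replicate 1 again lay apart from its group.

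Krt26 was at 0 in Cont replicates 1 and 2 and had 4.20 and 5.87 CPM in replicates 3 and 4. Its LowAhR values were 125, 0.896, 14.1 and 296 CPM. It had 147, 314, 231 and 309 CPM in LowAhR+AD and 198, 625, 419 and 500.2 CPM in LowAhR+AD+BJ. The highest LowAhR mouse was thus within the range of the LowAhR+AD group for this gene, and 3 of the 4 LowAhR+AD+BJ libraries were above all LowAhR+AD libraries.

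Among the type II keratins, Krt71 had 0.128, 19.1, 32.0 and 103 CPM in Cont and 323, 12.7, 88.9 and 1098 CPM in LowAhR. It had 860.1, 2769.8, 1876 and 2040.2 CPM in LowAhR+AD and 632, 1964, 1831 and 1591 CPM in LowAhR+AD+BJ. The order of the mice within Cont and LowAhR was nearly that of Krt25, its partner in the filament. Krt73 had 0.513, 9.17, 10.5 and 33.9 CPM in Cont and 131, 0, 19.1 and 260 CPM in LowAhR. It had 106, 572, 243 and 380.5 CPM in LowAhR+AD and 185, 446, 357 and 412 CPM in LowAhR+AD+BJ. LowAhR replicate 2, at 0 in Krt73, was also the lowest LowAhR library in the other 7 genes.

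Krt75, the companion layer keratin, behaved otherwise. It had 19.1, 21.8, 39.2 and 37.2 CPM in Cont, and so was present in Cont replicate 1, in which the inner root sheath keratins Krt25, Krt26 and Krt28 were at 0. In LowAhR it had 50.3, 27.3, 32.0 and 172 CPM, in LowAhR+AD 442, 295, 215 and 288 CPM, and in LowAhR+AD+BJ 124, 299, 256 and 325 CPM. All LowAhR+AD libraries were above all LowAhR libraries, and LowAhR+AD replicate 1, which was the lowest of its group in the other 7 genes, was the highest in this one.

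Tchh, which is also used by the medulla, had 6.93, 78.2, 97.0 and 464 CPM in Cont and 1541, 51.2, 284 and 3569 CPM in LowAhR. It had 1748, 8988, 2770.1 and 4260.5 CPM in LowAhR+AD and 2668, 7808, 7409 and 7054 CPM in LowAhR+AD+BJ. LowAhR replicate 4 exceeded 2 of the LowAhR+AD libraries, and the 3 highest LowAhR+AD+BJ libraries lay close together.

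**Figure D2:**
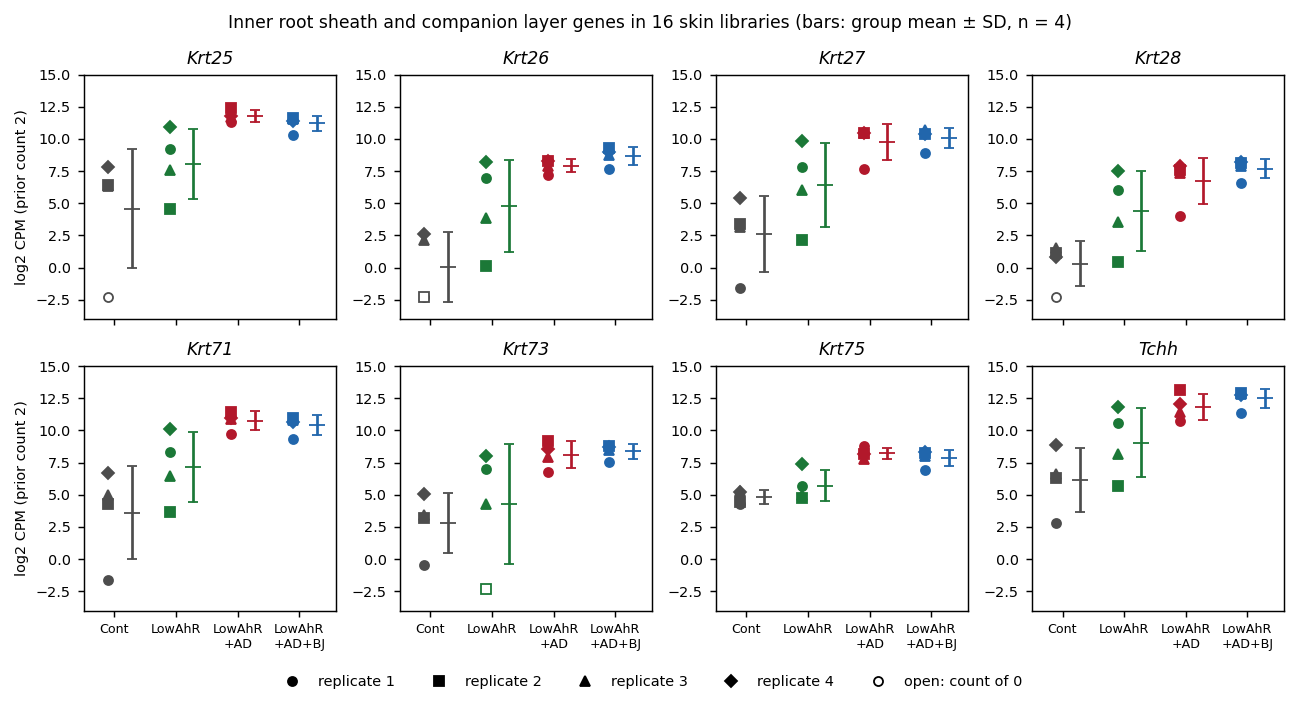
Level of each of the 8 genes (log2 CPM with a prior count of 2, 1 panel per gene) in the 16 libraries, with the mean ± SD of each group (n = 4) beside its points and open symbols for a count of 0. Cont and LowAhR points are spread over many log2 units in 7 of the panels, and the Krt75 panel is narrower, from 4.27 in Cont replicate 1 to 8.79 in LowAhR+AD replicate 1.

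LowAhR mice differed widely from each other. The highest LowAhR library exceeded the lowest by 83.5-fold in Krt25, 330-fold in Krt26, 212-fold in Krt27, 159-fold in Krt28, 86.7-fold in Krt71 and 69.7-fold in Tchh, but by only 6.29-fold in Krt75. Krt73 gave no such ratio because its lowest LowAhR library was at 0. Cont mice differed by 67.0-fold in Tchh, 66.0-fold in Krt73 and 2.05-fold in Krt75, and the other 5 genes had libraries at or near 0 there. In LowAhR+AD the same ratio was 2.19 in Krt25 and 2.05 in Krt75, and it was largest in Krt28, at 14.4. In LowAhR+AD+BJ it lay between 2.41, in Krt73 and Krt25, and 3.31, in Krt27.

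The first comparison was of the diet without DNCB, in which diet and bedding changed together and cannot be told apart. All 8 genes had a higher mean in LowAhR than in Cont, with fitted log2 fold changes from 1.26 to 5.42 and a median of 3.19, against 0.026 over all tested genes. Of the 8 genes, 0 passed an adjusted p of 0.05 in edgeR's quasi-likelihood test, and neither did any other gene (0% of tested genes called higher). All 8 had an unadjusted p under 0.05, as did 7.84% of tested genes in the same direction. Krt28 came nearest, at 5.37 on the log2 scale (SE 1.17, edgeR adjusted p = 0.0659), and Krt26 had 5.42 (SE 1.26, edgeR adjusted p = 0.0765). In all 8 genes the groups overlapped, and LowAhR replicate 2 lay within or under the Cont range in each. DESeq2 called 3 of them higher, namely Krt26, Krt27 and Krt28, where it called 2.39% of all genes higher, and limma voom called 0. Without LowAhR replicate 2, edgeR called Krt26, Krt27 and Krt28, and 0.93% of tested genes higher. Adipocyte genes moved between the same groups, with sums of 1631.5 to 2890 CPM in Cont and 3922.5 to 4634 CPM in LowAhR, which did not overlap. Of these 6 genes, edgeR called 0 and 4 had an unadjusted p under 0.05, and their part in the result was not tested.

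The second comparison asked what DNCB changed in mice on the diet. Only Krt75 passed the test among the 8 genes. Its level went from 70.3 ± 68.2 to 310.1 ± 95.1 CPM (SD, n = 4) and the fitted rise was 2.14 on the log2 scale (SE 0.49, edgeR adjusted p = 0.00932), where 6.42% of all tested genes were called higher. In a model of only these 8 libraries its adjusted p was 0.0525. Krt25 had the largest fitted difference of the 8 genes, 2.47 on the log2 scale (SE 1.12, edgeR adjusted p = 0.158), from 3728 ± 1285 and 674 ± 846 CPM. Krt25 and Krt75 did not overlap between the groups, as was true of 8.92% of tested genes in this direction. The other 6 genes had log2 fold changes from 1.20 in Krt26 to 2.31 in Krt71, and each overlapped between the groups, with LowAhR replicate 4 inside the LowAhR+AD range in each. The unadjusted p was under 0.05 in 3 genes, Krt25, Krt71 and Krt75, and in 14.9% of tested genes with a higher level. Without LowAhR replicate 4, edgeR called Krt71 as well, at a log2 fold change of 3.74 (adjusted p = 0.0449), with 7.19% of tested genes called higher. limma voom called 5 genes, Krt25, Krt26, Krt27, Krt71 and Krt75, and 6.15% of all tested genes higher.

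Against Cont, all 8 genes rose in LowAhR+AD, where 12.3% of tested genes were called higher. The groups did not overlap in any of the 8 genes, as in 13% of tested genes in this direction. Fitted log2 fold changes ran from 3.40 in Krt75 to 6.62 in Krt26, with a median of 5.43 against 0.045 over all tested genes. Krt28 went from 1.55 ± 1.14 to 152 ± 94.5 CPM (SD, n = 4), which was 6.60 on the log2 scale (SE 1.22, edgeR adjusted p = 0.00124). Krt27 rose by 6.17 (SE 1.34, edgeR adjusted p = 0.00355) and Krt71 by 5.61 (SE 1.25, edgeR adjusted p = 0.00428). Krt25 rose by 5.25 (SE 1.27, edgeR adjusted p = 0.00711). Tchh rose by 4.78 and Krt73 by 4.59, and Krt73 had the largest adjusted p of the 8 genes (0.0124 from edgeR). Krt75 changed least and had the smallest, 0.000338. The comparison differs in diet, bedding and DNCB together, along with any solvent and handling, and shares its LowAhR+AD libraries with the one before. With limma voom 5 genes passed, where 10.2% of tested genes were called higher, and Krt26, Krt28 and Krt73 did not (adjusted p = 0.104, 0.166 and 0.0688).

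The last comparison asked what BJIKT changed in mice with the diet and DNCB. The paper does not state whether LowAhR+AD mice were gavaged, so that BJIKT and daily gavage cannot be told apart. None of the 8 genes passed the test, and neither did any other gene (0% called higher). Log2 fold changes ran from -0.58 in Krt25 to 0.80 in Krt26, with adjusted p-values of 0.827 to 0.983 from edgeR. An unadjusted p under 0.05 was found in 0 of the 8 genes and in 1405 of 14854 tested genes, in either direction. With 8 genes, 0 is near that share and does not set them apart. DESeq2 and limma voom called 0 of the 8 genes. The standard error on this scale was 0.47 in Krt75 and 0.92 to 1.07 in the other 7 genes. It rests on a spread per gene fitted over all 16 libraries, and so also on Cont and LowAhR. In Krt25 the SD of log2 CPM was 4.62 in Cont, 2.72 in LowAhR, 0.47 in LowAhR+AD and 0.60 in LowAhR+AD+BJ. For Krt28 these values were 1.75, 3.10, 1.80 and 0.75. A failed test does not show equal levels. Without LowAhR+AD replicate 1, Krt27 and Krt73 changed direction, to -0.26 and -0.20.

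**Figure D3:**
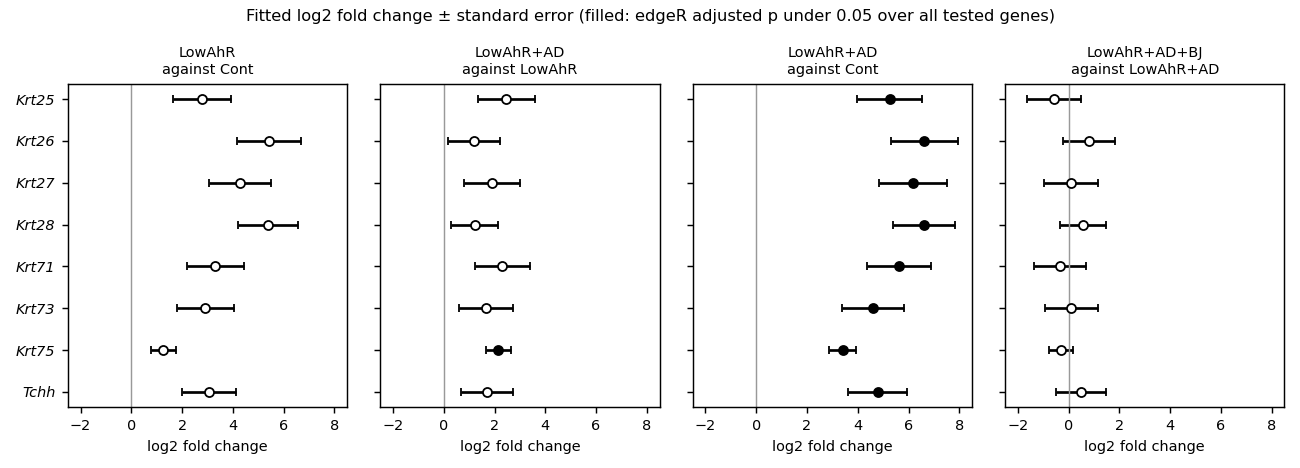
Fitted log2 fold change (horizontal axis) with its standard error for each of the 8 genes in the 4 comparisons, filled where the edgeR adjusted p over all tested genes was under 0.05. Against Cont, LowAhR+AD has 8 filled points between 3.40 and 6.62, LowAhR+AD against LowAhR has 1, for Krt75, and the other panels have 0.

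The make-up of the set, which does not depend on the scaling of libraries, differed between LowAhR+AD and LowAhR+AD+BJ. Krt25 made up 27.6% to 41.8% of the counts of the 8 genes in LowAhR+AD and 18.8% to 22.5% in LowAhR+AD+BJ. Krt71 went with it, at 13.8% to 18.4% against 11.2% to 12.4%. Tchh went the other way, at 27.1% to 44.7% in LowAhR+AD and 47.1% to 49.6% in LowAhR+AD+BJ, as did Krt26, at 1.56% to 2.48% against 2.79% to 3.95%. These 4 shares did not overlap between the groups, and they were singled out after the values were seen. They are parts of a whole and so not independent of each other. Shares of 2 genes were also higher without overlap in LowAhR+AD than in LowAhR (Krt25 and Krt71), and than in Cont (Krt26 and Krt71). No test of shares was run, and they have no counterpart over all genes. In LowAhR mice Krt25 held 18.9% to 26.8%, Krt71 10.6% to 13.1% and Tchh 40.4% to 50.4%. Krt26 held 0.746% to 4.09% there, a range that covers both DNCB groups. Without LowAhR+AD replicate 1, Krt25 still held 27.6% to 32.2%.

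The ratio of type I to type II counts of the set, without Krt75, lay between 2.04 and 3.36 in the 15 libraries other than Cont replicate 1. The counts of Krt25, Krt26, Krt27 and Krt28 together were 2.20 to 2.52 times those of Krt71 and Krt73 in LowAhR+AD+BJ, 2.23 to 2.58 times in LowAhR and 2.24 to 3.00 times in LowAhR+AD. In Cont replicates 2 to 4 the ratio was 3.36, 2.22 and 2.04, from 735 to 2329 type I counts, and Cont replicate 1 held only 1 type I and 5 type II counts. Among the 15 libraries other than Cont replicate 1, the set as a whole held between 938 and 244970 counts. LowAhR+AD replicate 1 had the highest ratio of the DNCB groups, 3.00, and was the library with many genes at 0.

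Within groups the inner root sheath genes rose and fell together from mouse to mouse. After group means were subtracted, Pearson's r of log2 CPM over the 16 libraries was 0.735 to 0.980 for the 21 pairs without Krt75 (median 0.897), and 0.591 to 0.759 for the 7 pairs with Krt75 (median 0.643). Without LowAhR+AD replicate 1 these medians were 0.901 and 0.752. The points share their library and its depth, and much of the range comes from the Cont and LowAhR mice.

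The 6 genes outside the set whose mouse-to-mouse pattern was most like the mean of the 8 genes, among 14183 compared over the 16 libraries with group means subtracted, were Krtap11-1 (r = 0.996), Krtap8-1 (0.992), Krt34 (0.982), Crym (0.972), S100a3 (0.969) and Krtap10-10 (0.964). The median r over all compared genes was 0.064. Krtap genes encode the keratin-associated proteins of the hair shaft, and Krt34 encodes a hair shaft keratin. Krtap11-1 had 8.78 ± 9.95 CPM (SD, n = 4) in Cont, 263 ± 377 in LowAhR, 1052 ± 543 in LowAhR+AD and 1104 ± 474 in LowAhR+AD+BJ. Of the 60 genes most like the set, 22 were Krtap genes and 8 were hair shaft keratins.

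**Figure D4:**
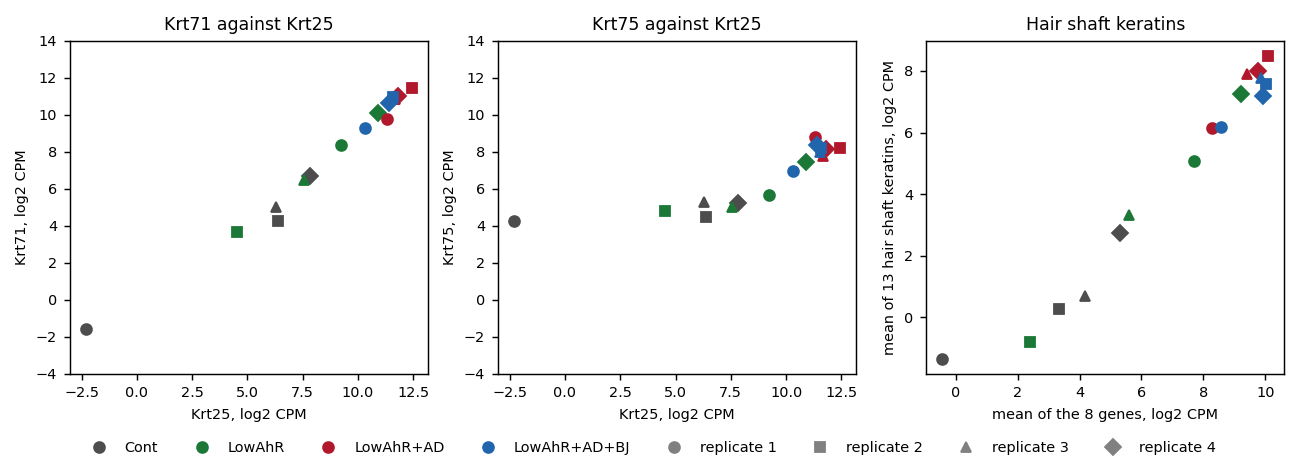
Log2 CPM of Krt71 and of Krt75 against Krt25, and the mean log2 CPM of 13 hair shaft keratins against the mean of the 8 genes, in the 16 libraries (colour for group, symbol for replicate). Krt71 follows Krt25 over the whole range, while Krt75 stays between 4.27 and 5.66 until Krt25 passes 10 on this scale.

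Most of the other genes listed for the inner root sheath also rose against Cont, although whether they are limited to this layer was not tested. Of 12 listed, 11 were tested, and against Cont 9 rose and 1 fell in LowAhR+AD (median log2 fold change 2.57). Padi3 and Padi1, enzymes that turn arginine of trichohyalin into citrulline, rose by 6.41 (SE 1.29, edgeR adjusted p = 0.00219) and 5.46 (SE 1.19, edgeR adjusted p = 0.00357). Padi3 was at 0 in 3 of the 4 Cont libraries, so that its fitted change depends on the prior count. Tchhl1, a relative of trichohyalin, rose from 22.0 ± 22.0 to 958 ± 563 CPM. Krt72, another type II keratin of the layer, was at 0 in every Cont library and had 1.93 ± 1.57 CPM in LowAhR+AD, at least 4.99-fold higher than the highest limit of a count of 0 in a Cont library. Its mean was higher still in LowAhR without DNCB, at 3.49 ± 4.31 CPM. In LowAhR+AD against LowAhR its log2 fold change was -0.85 (edgeR adjusted p = 0.725), and it was not called. Gata3, a transcription factor that specifies the inner root sheath but is also used by epidermis and lymphocytes, fell by 1.18 (adjusted p = 0.0136 from edgeR). Krt74 was at 0 in 14 of the 16 libraries and never passed 3 counts. Against LowAhR, edgeR called 4 of the 11 genes higher, namely Hoxc13, Tgm3, Dlx3 and Cux1, and 0 lower. Padi3, Padi1 and Tchhl1 were not called there, at log2 fold changes of 2.00, 2.96 and 1.39 (edgeR adjusted p = 0.2, 0.0669 and 0.341). Tgm3, the transglutaminase that cross-links trichohyalin, rose by 2.12 there (SE 0.52, edgeR adjusted p = 0.0137). In LowAhR against Cont and in LowAhR+AD+BJ against LowAhR+AD, edgeR called 0 of the 11, with an unadjusted p under 0.05 in 6 and 2.

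Hair shaft keratins rose in the same comparison. Against Cont, 12 of 13 rose in LowAhR+AD (median log2 fold change 6.75), with Krt81, Krt86, Krt36 and Krt33b changing most, by 7.39 to 7.85, and Krt36 was at 0 in 3 of the 4 Cont libraries. Against LowAhR, only Krt32 of the 13 was called. The mean of these keratins had a within-group r of 0.947 with the mean of the 8 genes, the other inner root sheath genes had 0.821, and the next highest list was that of melanocytes, at 0.520. Melanocyte genes summed to 172 to 247 CPM in the mice without DNCB and to 363 to 445 CPM in LowAhR+AD, and to 208 to 463 CPM in LowAhR+AD+BJ, which overlaps the mice without DNCB. Against Cont, 3 of 6 tested melanocyte genes rose in LowAhR+AD. Slc45a2 was at 0 in every Cont library and had a mean of 2.03 ± 1.68 CPM in LowAhR+AD, at least 5.24-fold over the limit of a count of 0. Its groups overlapped all the same, and it was at 0 in 8 of the 16 libraries. Tyrp1 rose by 3.77 and Dct by 1.85 on the log2 scale. Of 8 hair growth regulators, 3 rose against Cont. Lef1 rose by 2.50 and Sfrp1 by 1.60 on the log2 scale, and Fgf5 was at 0 in every Cont library and had 1.65 ± 1.05 CPM in LowAhR+AD, at least 4.26-fold over the limit of a count of 0.

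Markers of other parts of the skin moved between the same groups. In LowAhR+AD against LowAhR, 8 of 8 skeletal muscle genes and 5 of 6 adipocyte genes fell, and all 3 stress keratins and 5 of 6 cell cycle genes rose. Of 14854 tested genes, 1876 were called in either direction, 953 of them higher. The muscle genes summed to 6715 to 19721 CPM in LowAhR and 413 to 3320.2 CPM in LowAhR+AD, and the adipocyte genes to 3922.5 to 4634 and 198.5 to 1541 CPM. In LowAhR+AD against Cont, where all 8 follicle genes were called, 4 of the muscle and 3 of the adipocyte genes fell. Against LowAhR, outer root sheath and bulge genes went both ways, with 5 of 8 higher and 1, Cd34, lower. Krt6b and Krt6a, the neighbours of Krt75, rose by 8.41 and 5.41 against LowAhR (adjusted p = 0.000773 and 0.000148 from edgeR), and Krt16 by 5.66. Within groups, the lists of muscle, epidermis and cell cycle genes had an r of 0.062, 0.071 and 0.084 with the mean of the 8 genes, stress keratins had 0.239 and adipocyte genes 0.341. The part of these tissues in the differences of the set was not tested.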

How the data were processed

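Skin RNA of 16 mice was measured by QuantSeq 3′ mRNA sequencing. The authors deposited, for each library, a table listing whole read counts by gene symbol, not normalized. The submitters' processing notes name Bowtie2, bedtools and mm10 (GRCm38) without roles, and the paper names ExDEGA for differential expression. The handling of reads mapping to several genes is not given in the sources used here, and keratins of a cluster resemble each other in sequence.

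The 23282 rows entered edgeR 4.0.16 under R 4.3.3 (filterByExpr at 10 counts a library and 15 in all, TMM factors from 0.892 to 1.16, glmQLFit and glmQLFTest on all 16 libraries). P-values were adjusted by Benjamini-Hochberg over 14854 rows, with a threshold of 0.05. They weigh a difference between groups against the spread between the mice sequenced, fitted per gene over all 4 groups together. Replicates of a group differed by far more than sampling noise, with a chi-square per degree of freedom of 16.4 to 285. The tests were first tried on simulated counts.

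The 8 genes, the 14 marker lists and the tests were chosen with earlier results of these data known. All 8 genes were named. From a list, at most 4 called genes were named in a comparison, in order of the fitted change, along with genes at 0. Gata3 and Cd34 were added after their values were seen as the 1 gene of their list that fell. Inner root sheath genes named as rising against Cont were also given against LowAhR, where they were not called. The 6 most alike genes had a mean of at least 1 CPM. The alternatives tried were upper-quartile and RLE factors, DESeq2 1.42.0, limma voom (limma 3.58.1), no filter and a strict filter on counts, only the 8 libraries compared, a replicate block, library sizes without follicle, muscle and fat genes, and each library left out in turn.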

Additional observations from a re-analysis of the deposited data

Results flagged for a closer look

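In 36 groups of 4 libraries (the log2 CPM of the 8 genes and their mean), the gap between the lowest or highest library and its neighbour was compared with the range of the group. By chance about 1 in 20 such groups is marked, and 6 were, although the genes and their mean share libraries. Krt25 in Cont replicate 1, at a count of 0, had a log2 CPM of -2.30 against 6.30 to 7.84 in the other Cont mice. LowAhR+AD replicate 1 stood under its group in Krt27, at 7.67 against 10.44 to 10.48, and in Krt28, at 4.04 against 7.38 to 7.87, and it was the library in which 37.4% of genes predicted at 20 to 40 counts were at 0. LowAhR+AD+BJ replicate 1 stood under its group in Krt25 (10.32 against 11.39 to 11.59), in Tchh (11.38 against 12.78 to 12.93) and in the mean of the 8 genes (8.58 against 9.87 to 10.03), and 4.91% of such genes were at 0 in it.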

How the results depend on the processing

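Of the 8 genes, the number called higher in LowAhR against Cont was 0, and it was 3 with DESeq2, 1 with only the 8 libraries compared and 0 to 3 with a library left out. In LowAhR+AD against LowAhR it was 1, and it was 5 with limma voom, 0 with only the 8 libraries and 1 to 2 with a library left out. In LowAhR+AD against Cont it was 8, and it was 5 with limma voom and 2 with at least 10 counts in every library, a filter that only Krt75 and Tchh pass. In LowAhR+AD+BJ against LowAhR+AD it was 0 under every alternative that was run. Leaving out a library turned the direction in that comparison for Krt27 (log2 fold change -0.26 to 0.36) and Krt73 (-0.20 to 0.52). The cause of these changes was not tested, apart from the filter. With the replicate number as a block, the numbers called were 0, 1, 8 and 0 in the order of the comparisons. Same-numbered libraries correlated by -0.055 to 0.167 in their deviations from group means, and in no comparison did every pair pass 0.1, so the numbers were not used to pair mice. Among the fits that kept all libraries, single genes passed the threshold anew in 8 cases, lost it in 4 and kept their side of it in 252, and 0 turned direction. No group mean of the 8 genes moved by more than 1 SD. Low counts limit Krt26 and Krt28 most, with at most 49 and 22 counts in a Cont library.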

Other observations

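Lists for cells outside the follicle were read beside the set. In LowAhR+AD against Cont, all 4 tested neutrophil genes rose, led by S100a8 at 6.42 on the log2 scale (SE 0.77, edgeR adjusted p = 6.47e-05), and of 5 tested T cell genes 2, Cd3g and Cd3e, fell. Of 7 epidermal genes 2 rose and 3 fell there. Krt77, a keratin of the suprabasal epidermis, fell from 17.1 ± 7.11 to 0.158 ± 0.167 CPM (SD, n = 4, edgeR adjusted p = 0.000851), under the limit of 3 counts, and Lor, which encodes loricrin, fell by 2.58 (SE 0.73, edgeR adjusted p = 0.017). Krt14, a basal keratin, rose by 2.27 (SE 0.27, edgeR adjusted p = 6.04e-05). Of 5 macrophage and 6 sebaceous gland genes edgeR called 0, with an unadjusted p under 0.05 in 0 and 1. Within groups, r with the mean of the 8 follicle genes was 0.292 for the neutrophil list, 0.470 for T cells, 0.310 for macrophages, 0.281 for the sebaceous gland, 0.300 for the outer root sheath and bulge and 0.393 for hair growth regulators. The T cell genes summed to 0 CPM in 1 library, LowAhR+AD replicate 1.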
